A study of Mus musculus with 23 samples.

Results

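The Igf2r-Airn domain on proximal mouse chromosome 17 was followed as 4 genes, Igf2r, Airn, Slc22a2 and Slc22a3, which were taken by symbol from the deposited gene tables (4 of 26183 genes) in 23 whole embryos. All 4 symbols were found in both gene tables and in both allelic tables. The rule names the genes by symbol and position and uses no threshold on their values.

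Igf2r encodes the cation-independent mannose 6-phosphate receptor, which carries new lysosomal enzymes to the lysosome and takes the growth factor IGF2 from the cell surface to be degraded. In most mouse tissues it is transcribed from the maternal chromosome. Airn is a long noncoding RNA that starts inside Igf2r, runs antisense to it and is transcribed from the paternal chromosome, where its transcription silences Igf2r. The start of Airn lies in the imprinting control region of the domain, which is methylated on the maternal chromosome. Slc22a2 and Slc22a3 encode organic cation transporters, and their paternal alleles are silenced through Airn in the placenta.

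The protein made from Zfp57 is a KRAB zinc finger factor needed to preserve methylation imprints. The embryos were collected at E13.5 and were hybrids of 129 mothers and DBA* fathers, the latter being Zfp57 heterozygous mice backcrossed to DBA/2J. M+Z+ embryos had Zfp57 in the oocyte and in the embryo; M-Z+ embryos came from Zfp57-/- mothers and had a functional copy from the father; M-Z- embryos came from the same cross and had none. The sample titles write Zfp57-/+ for the M+Z+ embryos and the table headers call them WT, so whether they were wild type or heterozygous was not settled. The mutation is a germline deletion, so no cell type was targeted, and the cross behind the M+Z+ embryos of this assay is not given in the sources used here. There were 6 M+Z+, 3 M-Z+ and 4 M-Z- females, and 4 M+Z+, 3 M-Z+ and 3 M-Z- males, with 1 library per embryo.

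The targeted gene was checked first. In females, Zfp57 averaged 66.9 CPM (counts per 1000000 counts of the library) in the 6 M+Z+ embryos and 33.0 CPM in the 4 M-Z- embryos, a log2 fold change of -1.02 (SE 0.14). Males averaged 76.5 and 29.7 CPM, a log2 fold change of -1.33 (SE 0.11), with adjusted p-values of 0.000399 and 4.69e-05 (edgeR's quasi-likelihood test). Zfp57 reads thus remained in M-Z- embryos, and which exons the deletion removes is not given in the sources used here. Total counts were 15.2 to 24.1 M per embryo (M, 1000000 counts), and 2.46 to 3.94 M reads per embryo had been assigned to a parental allele. Trophoblast markers (11 genes) summed to at most 1.20 CPM in any embryo. Liver markers (5 genes, such as Alb and Afp) summed to 2366 to 3868 CPM in female M-Z- against 3155 to 6779 CPM in female M+Z+ embryos, and to 1627 to 4225 against 4433 to 6421 CPM in males. The same sum was 2532 to 4350 CPM in female M-Z+ and 4283 to 5361 CPM in male M-Z+ embryos. Of the 4 kidney markers, Six2, a gene of nephron progenitors and other embryonic mesenchyme, had 47.4 to 65.1 CPM in M-Z- against 31.1 to 45.4 CPM in M+Z+ females and 42.3 to 65.3 against 29.5 to 47.4 CPM in males, while Umod, Slc12a1 and Slc34a1 averaged at most 0.163 CPM in any group. Neuron markers (6 genes) summed to 968 to 1059 against 1053 to 1250 CPM in females and to 962 to 1026 against 1026 to 1110 CPM in males. In edgeR's fits, which rescale the libraries, their median log2 fold change was -0.18 in females, with all 6 below 0. In males it was 0.0023, with 3 below and 3 above 0. Erythroid markers (6 genes) summed to 10190 to 13393 against 9615 to 16553 CPM in females and to 15255 to 31766 against 11790 to 14098 CPM in males. Yolk sac markers (4 genes) summed to 9.82 to 16.5 CPM over all embryos. The part of these shifts in the results below was not tested. The M+Z+ females numbered 1 to 3 in the labels stood apart from those numbered 4 to 6, with 335 of 16431 genes differing between them (edgeR's quasi-likelihood test, adjusted p below 0.05). The total counts of Igf2r, Airn and Slc22a3 in female M-Z- embryos are therefore also compared with M+Z+ embryos numbered 4 and above. Values of Zfp57 and of the list genes, such as Plg and Acat2, are given with all M+Z+ embryos only. For allele reads this limit was not applied, since 4 of the 6 female M+Z+ columns carry no number of their own. Without male M-Z- replicate 3, the number of genes called in male M-Z- against M+Z+ embryos went from 65 to 899. Whether litters were shared is not given in the sources used here, so p-values measure only the spread between these embryos.

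In mm9 coordinates, Igf2r spans chromosome 17 from 12875272 to 12962572 on the minus strand, with 8929 bases of exons. Airn spans 12934177 to 13052750 on the plus strand, with 2188 bases of exons, and starts 28395 bases inside Igf2r, between exons 2 and 3. Slc22a2 spans 12777055 to 12821355 on the plus strand and Slc22a3 spans 12612840 to 12700570 on the minus strand. The exons of Airn and Igf2r in the tables share 0 bases. The antisense gene Tsix had 0.140% to 0.445% of the counts of Xist in the 13 females, so that reads were largely separated by strand in the tables. The share was 0.140% to 0.146% in M+Z+ females 1 to 3 and 0.256% to 0.445% in the other 10 females, without overlap, and the part of this in the Airn values was not tested.

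The following windows are shown because the start of Airn and the Igf2r intron around it form the control region on which the comparison of genotypes turns. The first runs from 250 bases before to 50 bases after the start of Airn (chr17:12933927-12934226, plus strand, NCBIM37, the assembly of mm9). The second is the Igf2r window of the same length with most copies of the hexamer TGCCGC, the methylated sequence that ZFP57 is known to bind (chr17:12934614-12934913, plus strand). The third is the start of Igf2r (chr17:12962523-12962822, minus strand), which is a promoter outside the control region. Capitals mark TGCCGC or its reverse complement GCGGCA; all sequences are read 5′ to 3′ on the strand named.
Airn start: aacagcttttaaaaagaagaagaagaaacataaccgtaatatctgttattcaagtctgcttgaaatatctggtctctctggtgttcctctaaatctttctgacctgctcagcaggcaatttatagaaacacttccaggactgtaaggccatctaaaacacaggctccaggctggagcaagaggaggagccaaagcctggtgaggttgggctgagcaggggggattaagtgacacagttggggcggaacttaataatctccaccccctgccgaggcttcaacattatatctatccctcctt
Igf2r intron after the Airn start: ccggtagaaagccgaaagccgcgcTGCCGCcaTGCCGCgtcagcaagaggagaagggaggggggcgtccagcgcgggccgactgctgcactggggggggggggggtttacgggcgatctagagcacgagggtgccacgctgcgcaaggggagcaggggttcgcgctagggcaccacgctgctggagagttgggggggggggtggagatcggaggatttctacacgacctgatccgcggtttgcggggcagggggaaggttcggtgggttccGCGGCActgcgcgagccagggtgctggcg
Igf2r start: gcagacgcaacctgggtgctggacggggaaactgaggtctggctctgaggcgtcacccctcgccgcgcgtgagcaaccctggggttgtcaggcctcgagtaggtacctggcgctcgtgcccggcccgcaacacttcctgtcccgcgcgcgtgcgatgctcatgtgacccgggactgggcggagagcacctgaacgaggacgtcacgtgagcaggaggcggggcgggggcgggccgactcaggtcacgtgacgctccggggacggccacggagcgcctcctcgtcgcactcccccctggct

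The window at the Airn start held 0 copies of the hexamer and 3 CpG dinucleotides in 300 bases. The intronic window, whose centre lies 587 bases after the Airn start, held 3 copies and 30 CpG dinucleotides. The window at the Igf2r start held 0 copies and 34 CpG dinucleotides. The whole intron (8237 bases) held 8 copies. For comparison, 13.49% of 25996 gene starts of the tables held at least 1 copy in a window of the same kind, and 0.0101% of the 306287 windows of 300 bases that tile chromosome 17 held 3 or more. The intronic window was picked as the richest of its intron, so its count is a description and no site was measured in these data.

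Igf2r expression was lower in M-Z- embryos, and the difference passed the test in females. The level was 440 CPM in the lowest, 469 CPM at the median and 482 CPM in the highest of the 6 female M+Z+ embryos. The 3 female M-Z+ embryos had 499, 441 and 477 CPM. The 4 female M-Z- embryos had 344, 297, 344 and 241 CPM. Every female M-Z- embryo was below every female of the other genotypes, which was so for 2.05% of 16871 genes against M+Z+ and for 5.86% against M-Z+ embryos. The log2 fold change of Igf2r was -0.61 (SE 0.08) against M+Z+ embryos and -0.61 (SE 0.09) against M-Z+ embryos, with adjusted p-values of 0.000198 and 0.00175 (edgeR's quasi-likelihood test, adjusted over all tested genes). To be called, a gene needed an adjusted p under 0.05 together with a log2 change whose size reached 0.5, and 0.563% of genes met this in the first comparison and 0.196% in the second. Against M+Z+ females 4 to 6 alone, the value was -0.58 (SE 0.09, adjusted p = 0.00338), also called. In whole embryos, fewer cells with Igf2r and less Igf2r RNA per cell cannot be told apart.

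In males the 4 M+Z+ embryos had 424, 438, 445 and 497 CPM of Igf2r, and the 3 M-Z+ embryos had 500, 454 and 453 CPM. The 3 male M-Z- embryos had 319, 394 and 348 CPM. The M-Z- males were also below every male of the other genotypes, but 6.36% of 16664 genes were so against M+Z+ and 8.74% against M-Z+ embryos. The log2 fold change was -0.31 (SE 0.09, adjusted p = 0.157) against M+Z+ and -0.34 (SE 0.10, adjusted p = 0.451) against M-Z+ embryos, and neither was called (edgeR's quasi-likelihood test). These comparisons called 0.39% and 0.15% of genes. Without male M-Z- replicate 2, which had the highest level of its group, the adjusted p fell to 0.0142 against M+Z+ and to 0.0213 against M-Z+ embryos, at log2 fold changes of -0.44 and -0.47, still under the minimum size.

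**Figure D1:**
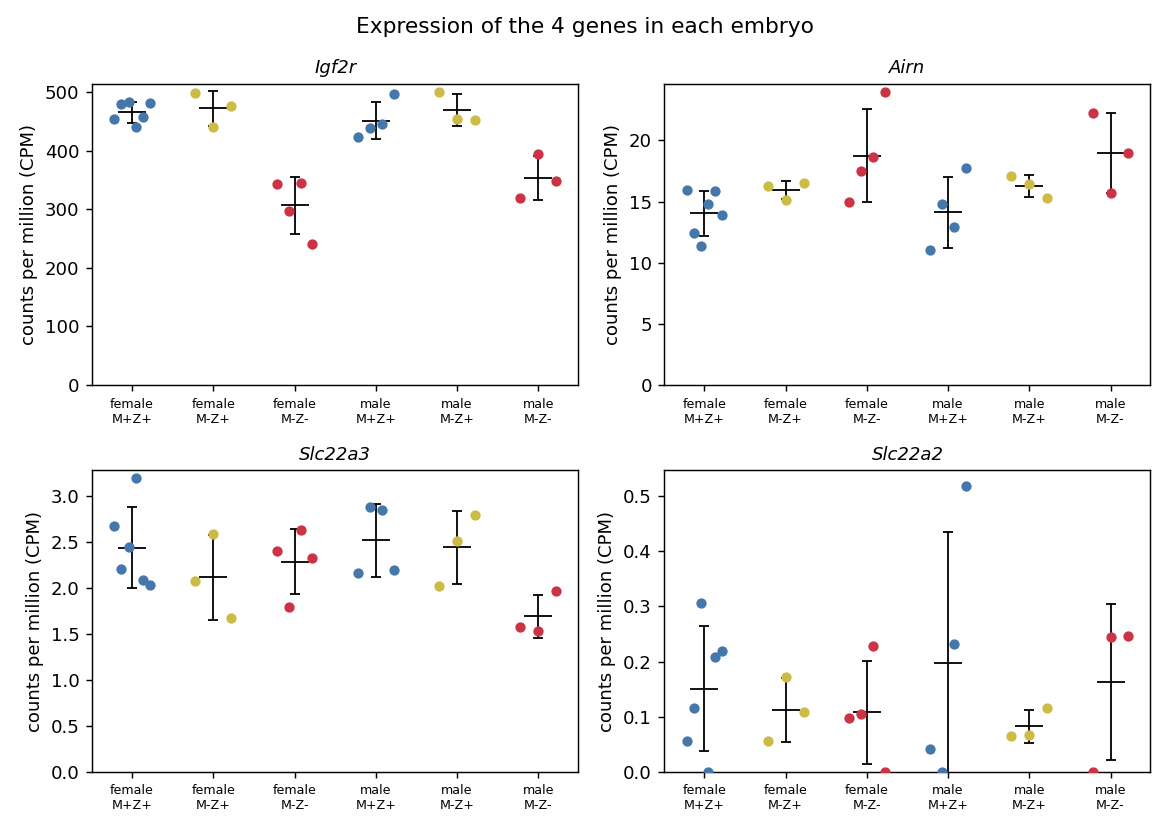
CPM of the 4 genes of the domain in each embryo (points), by sex and genotype, with the mean (bar) and SD (whiskers), each panel on its own linear scale. The M-Z- points of Igf2r lie below all others of the same sex, those of Airn reach the highest values of their sex, and Slc22a2 stays at or under 0.519 CPM.

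Embryos that lacked Zfp57 in the oocyte but had a paternal copy gave Igf2r levels close to those of M+Z+ embryos. Female M-Z+ embryos averaged 472 ± 29.4 CPM (SD, n = 3) against 465.8 ± 17.8 CPM (n = 6) in M+Z+ embryos, a log2 fold change of 0.01 (SE 0.08, adjusted p = 0.992). Male M-Z+ embryos averaged 469 ± 27.1 CPM (n = 3) against 451 ± 31.8 CPM (n = 4), a log2 fold change of 0.03 (SE 0.09, adjusted p = 0.952). Neither was called by edgeR's quasi-likelihood test, which called 0.0593% of the genes tested in females and 0.048% of those tested in males.

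With both sexes in 1 fit that shares the genotype effect, Igf2r was at -0.48 (SE 0.07, adjusted p = 4.22e-05) in M-Z- against M+Z+ embryos and at -0.49 (SE 0.07, adjusted p = 0.000324) against M-Z+ embryos, under the minimum size of 0.5 in both. That fit called 2.19% and 0.566% of 17139 genes, and 0.0759% in M-Z+ against M+Z+ embryos, where Igf2r was at 0.01 (SE 0.07). With the M+Z+ embryos limited to those numbered 4 and above it was -0.52 (adjusted p = 0.00301), which was called. All of these p-values are from edgeR's quasi-likelihood test.

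Airn was read at a much lower level and leaned the other way, without a call within either sex. Per kb of exon, female M+Z+ embryos had 6.41 ± 0.845 CPM of Airn (SD, n = 6) and 52.2 ± 1.99 CPM of Igf2r. The Airn level was 11.4 CPM in the lowest, 14.3 CPM at the median and 15.9 CPM in the highest female M+Z+ embryo. The 3 female M-Z+ embryos had 16.3, 15.1 and 16.5 CPM, and the 4 female M-Z- embryos had 14.97, 17.5, 18.6 and 23.98 CPM. Of the 4 M-Z- females, 3 were above every other female and replicate 1 fell within the M+Z+ range. The log2 fold change of Airn in female M-Z- embryos was 0.41 (SE 0.12, adjusted p = 0.101) against M+Z+ and 0.24 (SE 0.14, adjusted p = 0.656) against M-Z+ embryos (edgeR's quasi-likelihood test). Without M-Z- replicate 1, the embryo with the lowest Airn of its group, it was called at 0.51 (adjusted p = 0.0482), and without replicate 4 it was 0.27 (adjusted p = 0.252). Against M+Z+ females 4 to 6 alone it was 0.35 (SE 0.13, adjusted p = 0.205). The value against M-Z+ embryos was 0.096 without M-Z- replicate 4.

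The 4 male M+Z+ embryos had 11.0, 14.8, 12.9 and 17.8 CPM of Airn, and the 3 M-Z+ embryos had 17.1, 16.4 and 15.3 CPM. The 3 male M-Z- embryos had 22.2, 15.7 and 18.96 CPM. Of the 3, 2 were above every other male, and replicate 2, which had the most Igf2r of its group, had the least Airn. The log2 fold change in males was 0.47 (SE 0.15, adjusted p = 0.158) against M+Z+ and 0.28 (SE 0.16, adjusted p = 0.597) against M-Z+ embryos (edgeR's quasi-likelihood test). Against male M+Z+ replicate 4 alone, the only male numbered 4, it was 0.15. In M-Z+ against M+Z+ embryos the values were 0.17 (SE 0.13) in females and 0.19 (SE 0.15) in males, neither called. With the sexes in 1 fit the M-Z- value was 0.44 (SE 0.09, adjusted p = 0.00398), under the minimum size, and it was 0.29 (adjusted p = 0.207) with the M+Z+ embryos numbered 4 and above.

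**Figure D2:**
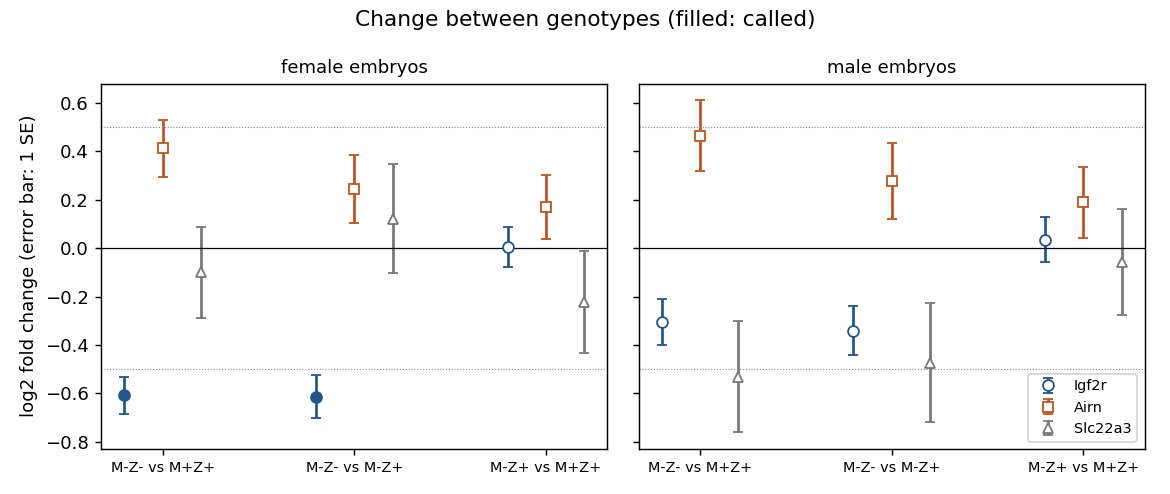
Fitted log2 fold changes of Igf2r, Airn and Slc22a3 (symbols) with 1 SE (whiskers) in each pair of genotypes, females left and males right; dotted lines mark the minimum size of 0.5. Filled symbols, the Igf2r values of -0.61 in female M-Z- embryos, are the called ones.

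The ratio of both RNAs within an embryo needs no scaling by library size. It was chosen as a measure after the values were seen. Airn reads per exon base were 12.4% ± 1.99 (SD, n = 6) of those of Igf2r in M+Z+ females. The ratio was 13.8% ± 0.437 (n = 3) in M-Z+ females and 26.1% ± 10.01 (n = 4) in M-Z- females. Female M-Z- embryos ranged from 17.8% to 40.6% and M+Z+ embryos from 9.63% to 14.3%, without overlap. In males the ratio was 12.7% ± 1.82 (n = 4), 14.2% ± 0.530 (n = 3) and 22.3% ± 6.08 (n = 3), and the M-Z- males (16.3% to 28.4%) lay above all other males. The difference of M-Z- from M+Z+ embryos was 13.8 percentage points in females, or 8.92 without M-Z- replicate 4 (40.6%), and 9.62 in males, and that of M-Z+ from M+Z+ embryos was 1.46 and 1.48. The ratio joins the Igf2r and Airn values already given, so it is a description and no test of it is reported. With female M+Z+ embryos numbered 4 to 6 alone, the difference was 12.9 and the groups still did not overlap.

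Within a genotype, Igf2r and Airn were compared across embryos of both sexes. Among the 7 M-Z- embryos, Pearson's r of the CPM values was -0.74 (exact permutation p = 0.0532) and Spearman's rho was -0.46 (p = 0.302). Without the 2 embryos farthest from the median of Airn, r was -0.52. Among the 10 M+Z+ embryos r was 0.26 (permutation p = 0.463; rho 0.22, p = 0.537), and it was -0.58 without the 2 farthest. Among the 6 M-Z+ embryos r was 0.77 (exact permutation p = 0.0917; rho 0.83, p = 0.0583), and it was 0.37 without the 2 farthest. Adjusted over the 3 genotypes, the p-values of r were 0.138, 0.463 and 0.138, so no relation passed the test.

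**Figure D3:**
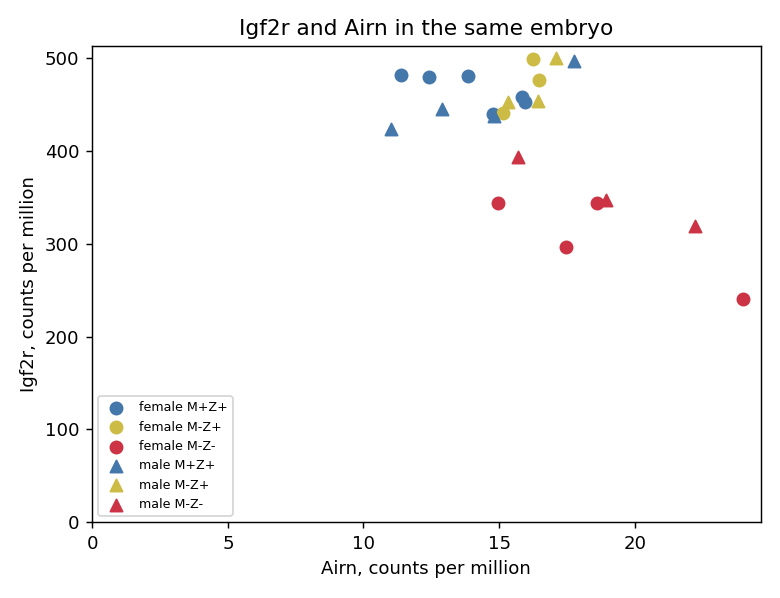
Igf2r (vertical axis) against Airn (horizontal axis) in CPM, 1 point per embryo, circles for females and triangles for males, coloured by genotype. The 7 M-Z- embryos lie at or below 394 CPM of Igf2r, and the embryo with the most Airn (23.98 CPM) has the least Igf2r (241 CPM).

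Slc22a3, an organic cation transporter also known as the extraneuronal monoamine transporter, was read at 25 to 57 counts per embryo. The level was 2.03 CPM in the lowest, 2.33 CPM at the median and 3.19 CPM in the highest female M+Z+ embryo, and 2.40, 1.79, 2.63 and 2.32 CPM in the 4 female M-Z- embryos. The female groups overlapped, at a log2 fold change of -0.10 (SE 0.19, adjusted p = 0.856), and of -0.08 (SE 0.24) against M+Z+ females 4 to 6 alone. In males the 4 M+Z+ embryos had 2.16, 2.88, 2.85 and 2.19 CPM and the 3 M-Z- embryos had 1.57, 1.53 and 1.96 CPM. The male groups did not overlap, as for 6.36% of genes, and the log2 fold change of -0.53 (SE 0.23, adjusted p = 0.261) was not called by edgeR's quasi-likelihood test. The 3 female M-Z+ embryos had 2.07, 2.59 and 1.67 CPM and the 3 male ones had 2.02, 2.51 and 2.80 CPM.

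Slc22a2, the transporter of the adult kidney, had 0 to 9 counts per embryo and 56 counts in all 23, with 0 counts in 4 embryos, a result that allows up to 3 counts per embryo. The highest value was 0.519 CPM, in a male M+Z+ embryo. It did not pass the filter on low counts, so it was not tested, and a difference between genotypes was not detectable at this depth. Of the 4 genes, 3 were thus tested, and 1 of them, Igf2r, was called in M-Z- embryos, in females, where 0.563% of all tested genes were called against M+Z+ embryos (0.39% in males).

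Reads over strain variants were assigned by the authors to a parental allele. An assignment to the maternal allele rests on the 129 base, and whether the DBA* fathers carry DBA/2J sequence at Igf2r was not tested, so reads counted as maternal may include paternal ones. Of the Igf2r reads that could be assigned, 5123 were maternal and 2 were paternal over the 23 embryos, a paternal share of 0.0390% (95% Wilson interval 0.0107% to 0.142%; intervals cover counting error only). The paternal reads were 1 in female M-Z+ replicate 3 and 1 in male M-Z- replicate 2. The M-Z- embryos had 0 paternal of 643 assigned reads in females and 1 of 456 in males. The study's P-score, the paternal share minus 0.5, was thus -0.5 in M-Z- as in M+Z+ females and differed by at most 0.00225 between any pair of genotypes, with exact two-sided permutation p-values of 0.333 to 1. The smallest p these group sizes allow was 0.00476 to 0.1.

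The reads of Igf2r assigned to the maternal allele, per 1000000 assigned reads of the embryo, were lower in M-Z- than in M+Z+ embryos of both sexes but varied in M-Z+ embryos in ways its total did not. The 6 female M+Z+ embryos had 76.2 to 103 such reads, the 3 M-Z+ embryos had 94.9, 40.3 and 99.8, and the 4 M-Z- embryos had 57.7, 74.2, 63.3 and 25.5. Female M-Z- embryos lay below all M+Z+ embryos, as for 0.558% of 6446 genes with at least 10 maternal reads on average, and overlapped the M-Z+ embryos. The log2 fold change was -0.67 (SE 0.22, adjusted p = 0.235) against M+Z+ embryos in the test of maternal reads, which called 0.496% of genes, and it was -0.43 without M-Z- replicate 4. It was -0.51 (SE 0.26, adjusted p = 0.781) against M-Z+ embryos, where 0.919% were called (leaving out M-Z- replicate 4 gave -0.27, leaving out M-Z+ replicate 2 gave -0.82), and -0.16 (SE 0.23, adjusted p = 0.919) in M-Z+ against M+Z+ embryos, where 0.292% were called. An allele was assigned for 1.46% of the Igf2r counts of female M-Z+ replicate 2 and for 1.62% of those of M-Z- replicate 4, against 2.65% to 3.81% in the other 7 females that carry the same number in both tables; without M-Z+ replicate 2 the M-Z+ value against M+Z+ embryos went from -0.16 to 0.16.

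In males the maternal reads were 85.2, 69.4, 79.1 and 98.2 per 1000000 in M+Z+, 119, 115 and 96.3 in M-Z+ and 54.5, 59.4 and 67.4 in M-Z- embryos. The M-Z- males lay below all others, as for 3.62% of 6431 genes against M+Z+ and 6.22% against M-Z+ embryos. The log2 fold change was -0.86 (SE 0.14, adjusted p = 0.00174) against M-Z+ embryos, which was called, where 1.32% of genes were called. The share of Igf2r counts with an assigned allele was 3.39% to 4.12% in the male M-Z+ and 2.30% to 3.07% in the male M-Z- embryos, without overlap, while the total differed by -0.34 and was not called, and the part of this shift in the called value was not tested. The share was 2.63% to 3.29% in the male M+Z+ embryos. Against M+Z+ embryos it was -0.46 (SE 0.14, adjusted p = 0.0897), not called, where 2.84% of genes were called, and without M-Z- replicate 3 it was called at -0.54 (adjusted p = 0.0456). M-Z+ males were at 0.40 (SE 0.13, adjusted p = 0.451) against M+Z+ males, beside 0.03 for the total, where 0.194% were called. All are from edgeR's quasi-likelihood test.

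**Figure D4:**
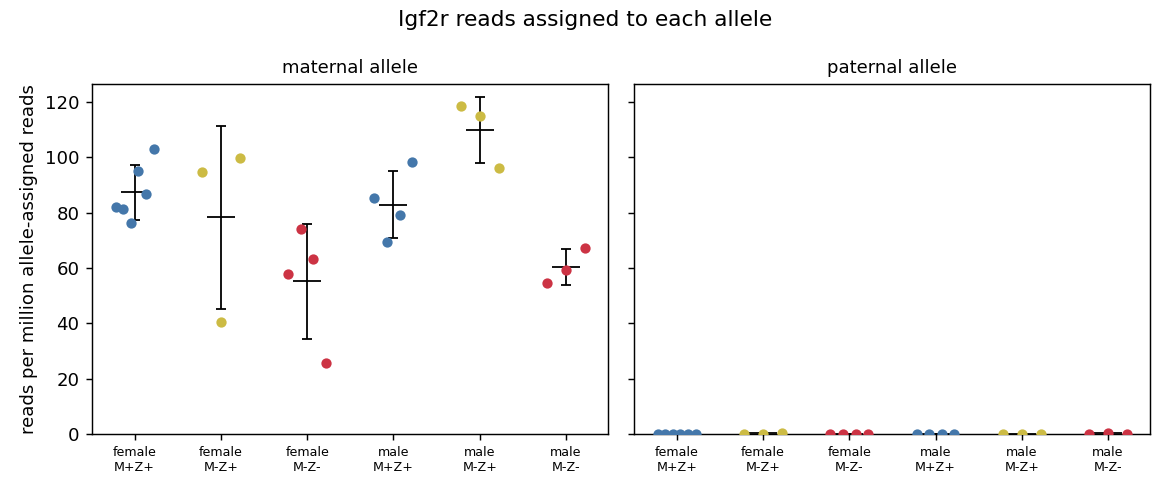
Igf2r reads assigned to the maternal allele (left) and the paternal allele (right), per 1000000 assigned reads of the embryo, with 1 point per embryo, the mean (bar) and SD (whiskers). Maternal values run from 25.5 to 119, and the paternal values are 0 but for 2 embryos with 1 read each.

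Only 2.98% of the Igf2r counts could be assigned to an allele, against 30.4% for Slc22a3. The genes around the domain showed where the assignment changed. Between 3 Mb and the start of Igf2r, 37 of the 46 genes with over 50 assigned reads had a paternal share of 30% to 70%, and 23.6% of reads were assigned. Between the end of Airn and 25 Mb, 12 of 39 such genes did, 18 had a share under 5% and 2 a share over 95%, and 3.16% of reads were assigned. Afdn, named after its values were seen, encodes the adherens junction protein afadin and lies past Airn; it had 1589 maternal and 0 paternal reads. Its share was 0% in each of the 3 genotypes, and Mas1, Pnldc1, Mrpl18, Tcp1, Acat2, Wtap and Sod2 had 0 assigned reads. A maternal share near 100% was therefore found at a position where other genes also gave one-sided reads, and whether paternal reads of Igf2r would be assigned at its variants was not tested. For the same reason the paternal reads do not show whether the paternal allele was silent in M-Z- embryos.

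**Figure D5:**
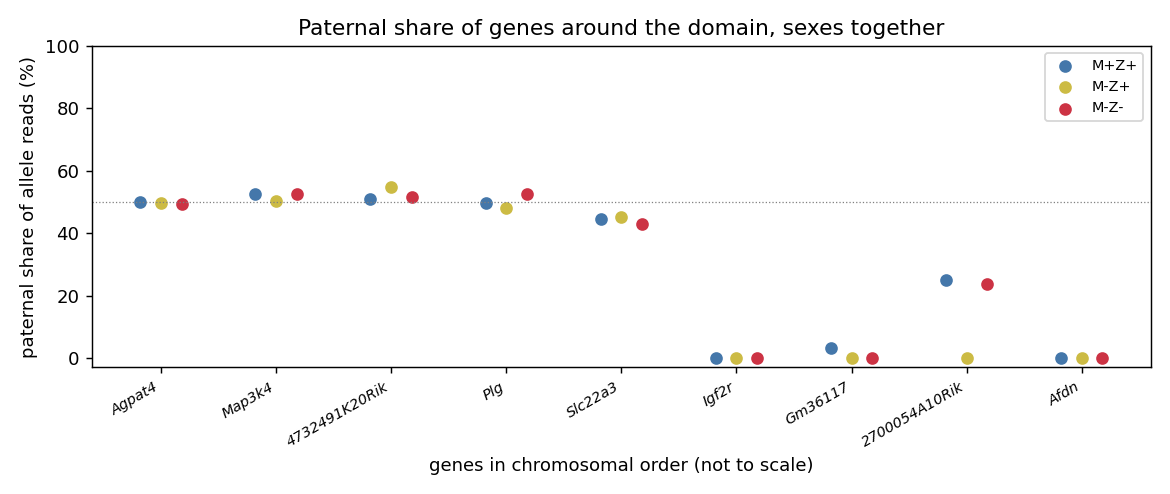
Paternal share of the assigned reads (percent, vertical axis) of the genes around the domain with over 50 assigned reads, in chromosomal order and not to scale, 1 point per genotype with the sexes pooled. 1 such gene is not shown. Genes from Agpat4 to Slc22a3 lie between 42.9% and 54.9%, and Igf2r and Afdn lie between 0% and 0.0910%.

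Airn had 4 assigned reads in all, 1 in each of 4 embryos, all paternal, so no share by genotype could be compared. Slc22a2 had 5 assigned reads. Slc22a3 had 158 maternal and 126 paternal reads, a paternal share of 44.4% (95% Wilson interval 38.7% to 50.2%). By group the share was 55.4% (44.1% to 66.2%) in female M+Z+ and 42.9% (29.1% to 57.8%) in female M-Z- embryos, and 32.3% (22.2% to 44.4%) in male M+Z+ and 42.9% (26.5% to 60.9%) in male M-Z- embryos. Both alleles were thus read in every group, and no pair of genotypes had 3 embryos with more than 10 reads on both sides, so the P-score was not tested.

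The sexes did not differ by a called amount. In M+Z+ embryos the female minus male log2 difference was 0.05 (SE 0.08) for Igf2r, 0.00 (SE 0.13) for Airn and -0.04 (SE 0.18) for Slc22a3, where 0.0817% of genes were called. The difference between the sexes in the M-Z- effect was -0.29 (SE 0.13, unadjusted p = 0.0292, adjusted p = 0.753) for Igf2r, -0.04 (SE 0.20, adjusted p = 0.980) for Airn and 0.44 (SE 0.28, adjusted p = 0.808) for Slc22a3. This interaction was called for 0 of 17139 genes by edgeR's quasi-likelihood test, with 1107 at an unadjusted p below 0.05, and DESeq2 gave 0.932 as the adjusted p of Igf2r. The call of Igf2r in females and not in males is therefore not a shown difference between the sexes.

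The other genes of the pathway and of the region were read from lists. Of 12 genes of the IGF2 axis and mannose 6-phosphate sorting, 0 were called in M-Z- against M+Z+ embryos in females and 0 in males, where 0.563% and 0.39% of all tested genes were, so that a count of 0 is near the background for each of the lists, with list medians of 0.02 and 0.04 against 0.00 over all genes. Igf2, the growth factor that Igf2r clears, had log2 fold changes of -0.14 (SE 0.07) and -0.15 (SE 0.09) in females and males. Igf1, the related growth factor, had -0.17 (SE 0.06) and -0.23 (SE 0.10), and Igf1r, which transmits the IGF2 signal, had -0.15 (SE 0.08) and 0.05 (SE 0.11). H19, the noncoding RNA next to Igf2, had 0.05 (SE 0.11) and 0.16 (SE 0.12).

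Of 18 lysosomal hydrolases that carry mannose 6-phosphate, 0 were called in either sex (background 0.563% in females and 0.39% in males), and their log2 fold changes ran from -0.18 to 0.17 in the females and from -0.20 to 0.24 in the males. Ctsd, the lysosomal protease cathepsin D, had -0.15 (SE 0.07) and -0.14 (SE 0.08). Of the other organic cation transporters, 4 were tested and 0 called, with Slc22a4 at -0.37 (SE 0.19) and -0.29 (SE 0.15). In M-Z- against M+Z+ embryos, the widest change of that list was in Slc47a1, a proton-coupled exporter of organic cations. Its value was -1.01 (SE 0.35, adjusted p = 0.184) in males by edgeR's quasi-likelihood test, from 2.30 ± 0.316 CPM (SD, n = 4) to 1.12 ± 0.669 CPM (n = 3), and -0.27 (SE 0.29) in females. Of 11 genes of imprint maintenance and chromatin silencing, 0 were called, against the same background. Trim28, the co-repressor bound by KRAB zinc finger proteins, had 0.14 (SE 0.05) and 0.12 (SE 0.07), and Zfp445, another imprint-keeping zinc finger gene, had 0.04 (SE 0.05) and 0.03 (SE 0.09).

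Of the neighbours on chromosome 17, 11 were tested in females and 10 in males. Plg, which encodes plasminogen, a liver product, was called lower in female M-Z- against M+Z+ embryos at -0.94 (SE 0.21, adjusted p = 0.0317). In males Plg had -1.04 (SE 0.27, adjusted p = 0.118). The 5 liver markers had median log2 fold changes of -0.56 in females and -0.75 in males in the same comparison. An adjusted p under 0.05 was reached by 0 of them in either sex (edgeR's quasi-likelihood test). The part of liver content in the Plg values was not tested. Acat2, an acetyl-CoA acetyltransferase gene, had 0.26 (SE 0.06, adjusted p = 0.0444) in females and 0.29 (SE 0.07, adjusted p = 0.105) in males, under the minimum size. The other neighbours had adjusted p-values above 0.05 in every comparison, such as Agpat4 at 0.08 (SE 0.06) and Map3k4 at 0.05 (SE 0.06) in females (edgeR's quasi-likelihood test).

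The genes whose levels were most like those of Igf2r over the 23 embryos, by Pearson's r of log2(CPM + 0.5) centred on each sex among 14919 autosomal genes, were Zim1 (r = 0.91), Blcap (r = 0.90) and Dlk1 (r = 0.87), which are imprinted genes of other chromosomes. Those most like Airn were Arap3 (r = 0.87), Nr1h5 (r = 0.83) and Mir770 (r = 0.83). Mir770 lies on chromosome 12 near Dlk1, starting at 110801902 where Dlk1 ends at 110701546. The r of Airn with Igf2r on the same scale was -0.63. These are descriptions over 3 genotypes and shared libraries.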

How the data were processed

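RNA-seq of 23 whole embryos was used. Per the labels and the study's methods, the authors trimmed reads with Trim Galore, used STAR 2.7.8a to align whole reads to mm9, kept unique alignments and counted them per gene with featureCounts (Subread 2.0.1), strand-specifically and for every gene a read overlapped. The deposited gene tables hold these raw counts, and the deposited allelic tables hold counts of reads that SNPsplit gave to the maternal or the paternal genome after variants had been masked; the strand setting of that counting is not given in the sources used here. A further deposited column, the exon length in bases, was used for levels per kb. The number of per-sample columns left unused was 0. In the female allelic table, 4 M+Z+ embryos carry header names shared by pairs and were used without a number.

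Genotypes were compared within a sex with edgeR 4.0.16 (glmQLFit, glmQLFTest, TMM, filterByExpr; limma 3.58.1, R 4.3.3) in 1 fit of the 3 genotypes, with Benjamini-Hochberg adjustment over all tested genes; maternal reads were scaled to the assigned reads of both alleles. A P-score needed more than 10 assigned reads. Permutation tests of P-scores went through every regrouping of the embryos and compared the absolute difference in means (numpy 2.4.6), and Wilson intervals came from scipy 1.17.1. Permutation tests of correlations compared the absolute coefficient. They went through every order of the values in M-Z+ and M-Z- embryos and through random orders in M+Z+ embryos. The fits were tested on simulated data. DESeq2 1.42.0, other scalings, filters, fits and left-out embryos were the alternatives. 1 gene of the lists is not reported here. The genes and lists were chosen with earlier results of these data known. The named genes were the 4 members, Zfp57, list genes with an adjusted p below 0.05 and up to 4 further examples per list, and the 3 genes most like Igf2r or Airn. Depths were 15.2 to 24.1 M counts, and intervals cover counting error only.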

Additional observations from a re-analysis of the deposited data

Results flagged for a closer look

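Slc22a3 had 3.91 maternal reads per 1000000 assigned reads in 1 female M+Z+ embryo, which stood apart from the other 5 of its group. Of 21 sets looked at in this way, 1 stood apart, and chance gives about 1 in 20. A set was a gene's CPM or maternal reads, or the Airn to Igf2r ratio, in a group of 4 or 6 embryos. Groups of 3 embryos were not looked at. The value rests on few reads, since Slc22a3 had 4 to 26 assigned reads per embryo.

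The change of Igf2r in M-Z- against M+Z+ embryos was larger in females than in males, by -0.29 (SE 0.13) on the log2 scale, at an unadjusted p of 0.0292 in edgeR's quasi-likelihood test across all genes. The adjusted p was 0.753, so the difference between the sexes failed the correction, and DESeq2 gave -0.29 with an adjusted p of 0.932. All 4 female and all 3 male M-Z- embryos were below the M+Z+ embryos of their sex.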

How the results depend on the processing

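Over 69 results and 285 alternative settings, other than leaving out embryos, 248 values kept their direction and their side of the threshold or, for counts, stayed close. The call of Igf2r in female M-Z- embryos held in all of the alternatives run, between -0.67 and -0.51 without any 1 embryo. With M+Z+ embryos limited to those numbered 4 and above, an alternative chosen after seeing the data, Igf2r with the sexes in 1 fit passed the size minimum at -0.52, and the Airn to Igf2r ratio in M-Z- females, 12.9 percentage points above M+Z+, moved from 13.8, without overlap of the groups. With the same limit, M-Z+ males against the lone M+Z+ male, which was assumed to vary like the other groups, turned sign for Airn (-0.12), Igf2r (-0.082), Slc22a3 (0.16) and the ratio (-0.40), and Igf2r in M-Z+ embryos of both sexes went to -0.028. With M+Z+ females 1 to 3 it was -0.025 in M-Z+ females. The cause of these changes was not tested.

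The replicate numbers did not pair the embryos, with correlations of -0.25 to 0.42 between the same numbers. With the replicate block, Igf2r was at -0.62 (adjusted p = 0.0207) in female M-Z- embryos and at -0.28 (adjusted p = 0.179) in males, and in female M-Z+ embryos it was -0.023, and -0.022 for the same embryos without the block. In M-Z- against M+Z+, M-Z+ against M+Z+ and M-Z- against M-Z+ embryos, the block called 43, 11 and 64 genes in females and 164, 177 and 11 in males. The same embryos without the block gave 60, 44 and 38 genes in females and 39, 260 and 16 in males.

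The number of genes called in female M-Z- against M+Z+ embryos went from 95 to 212 with no minimum change, 143 with DESeq2 and 228 with M+Z+ 1 to 3 only. In males it went from 65 to 99 with no filter on low counts, 182 with DESeq2, 40 with only the 2 genotypes in the fit, 3 and 144 with M+Z+ embryos 4 and above or 1 to 3, and 275 with both sexes in 1 fit. In M-Z+ against M+Z+ it was 3 with only the 2 genotypes and 80 with M+Z+ 1 to 3 in females, and in males it was 13 with DESeq2, and 0 and 54 with M+Z+ embryos 4 and above or 1 to 3. In male M-Z- against M-Z+ it was 57 with DESeq2, 16 with only the 2 genotypes and 48 with both sexes in 1 fit. Without any 1 embryo, the counts ran from 55 to 116, 5 to 12 and 30 to 43 in the female comparisons (M-Z- against M+Z+, M-Z+ against M+Z+, M-Z- against M-Z+) and from 41 to 899, 0 to 54 and 17 to 376 in the male ones, the highest without male M-Z- replicate 3 in both M-Z- comparisons.

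Leaving out 1 embryo changed a call or a sign for these values, or moved a ratio. Airn in female M-Z- embryos ran from 0.27 to 0.51 against M+Z+ embryos. Igf2r in M-Z+ against M+Z+ embryos ran from -0.036 to 0.050 in females and from -0.0067 to 0.079 in males. Slc22a3 ran from -0.024 to 0.30 in female M-Z- against M-Z+ and from -0.17 to 0.066 in male M-Z+ against M+Z+ embryos. Maternal reads of Igf2r ran from -0.37 to 0.16 in female M-Z+ and from -0.54 to -0.37 in male M-Z- against M+Z+ embryos, and those of Slc22a3 from -0.31 to 0.25 in male M-Z+ embryos. The ratio ran from 6.56 to 12.6 percentage points above M+Z+ in male M-Z- and from 8.92 to 16.5 in female M-Z- embryos, and from 0.911 to 1.85 and 0.772 to 2.10 in female and male M-Z+ embryos. Above M-Z+ embryos, the ratio ran from 7.46 to 15.1 percentage points in female and from 5.08 to 11.2 in male M-Z- embryos. Values not called that moved by over 1.5 times included Airn against M-Z+ in female (0.096 to 0.34) and male (0.16 to 0.36) M-Z- embryos. Airn in male M-Z+ embryos (0.085 to 0.31) and Slc22a3 in female M-Z- against M+Z+ embryos (-0.17 to -0.00057) were others. So were maternal reads of Igf2r in female M-Z- embryos against M+Z+ (-0.85 to -0.43) and M-Z+ (-0.82 to -0.27). Slc22a3 in female M-Z+ against M+Z+ embryos (-0.40 to -0.073) also moved by over 1.5 times. The same held for maternal reads of Slc22a3 in male M-Z- against M-Z+ embryos (-0.96 to -0.41).

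Airn had 186 to 485 counts per embryo and Slc22a3 25 to 57, which limits the precision of both. By DESeq2, Airn in female M-Z- embryos had an adjusted p of 0.0350 at 0.42. Slc22a2 had no test after the filter on low counts. The planned fit on M+Z+ embryos of 1 kind of column name was not run, since the columns carry a single kind.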
